A study of Mus musculus with 18 samples.

Results

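The genes described here were counted in every library of mature mouse oocytes and had no count in any library of oocytes cut from primordial or primary follicles. They were chosen by their level: a CPM of at least 10 (the count divided by the library total, times 1000000) in each of 6 libraries of oocytes at metaphase II of meiosis (MII), and a count of 0 in each of 12 follicle libraries. Nqo1 was left out by name. Of 53715 genes in the count table, 231 met these terms, out of 4974 with at least 10 CPM in each MII library (4.64%). Because both conditions chose the genes, the gap between MII and follicle libraries is a description and was not tested.

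The series is bulk RNA sequencing of mouse oocytes, marked as in vivo, from a cross of the strains C57Bl/6j and CBA/J. Oocytes of primordial follicles, oocytes of primary follicles and MII oocytes were each taken from sham animals and from animals labelled NTY, a name the labels do not explain. Each of the 6 groups has 3 libraries, 18 in all. No age is given, and nothing says how many oocytes or animals a library holds.

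The library method changed with the stage. Follicle oocytes were taken, from the extraction protocol, to be the cells cut out by laser, whose RNA was amplified and made into libraries with a TruSeq RNA Access kit. Collected oocytes were prepared by Smart-seq II. As background, RNA Access enriches coding sequence with capture probes, whereas Smart-seq II copies polyadenylated RNA in general and does not mark its strand. Stage and kit therefore cannot be told apart for any of the 231 genes, and a count of 0 in the follicle libraries is not evidence that a gene is silent there. In bulk libraries, fewer cells and less RNA per cell cannot be told apart either.

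The microdissected libraries had more counts but mostly fewer genes. Total counts ranged from 8652089 to 9978830 in the 6 MII libraries and from 15149564 to 29205503 in the 12 microdissected libraries. Genes with a count numbered 12782 to 18239 in MII and 6147 to 13755 in the microdissected libraries, lowest in primordial sham replicate 1 and primordial NTY replicate 3 (6524). A count of 0 allows a level of up to 0.103 to 0.198 CPM in a microdissected library, taking 3 counts as the limit, and up to 0.0107 CPM over all 12 together. These limits hold for counting error alone, because many reads can stem from 1 amplified molecule.

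Overlap between genes touches most of the set and is given before the genes themselves. In 149 of the 231 genes (64.5%) an exon overlaps an exon of another gene on the opposite strand, against 1706 of the 4974 genes (34.3%) at the same MII level. Without a strand mark, reads from the shared bases of such a pair cannot be told apart, so a level can hold reads of the partner where the partner is expressed. The other 82 genes have no such overlap, and 56 of them overlap no other gene at all.

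The partners were mostly well expressed. Taking for each of the 149 genes the opposite-strand gene with the longest overlap gave 144 distinct partners. The partner is protein-coding for 137 of the 149 genes, and it had at least 10 CPM in each MII library for 139. It had counts in at least 1 microdissected library for 141 of the genes, and in all 12 for 52. The counts of the chosen gene were a median of 27.6% of those of its partner in MII. Only 19 of the 149 lie wholly inside exons of the partner, and the overlap covered a median of 27.7% of the exonic bases. All MII counts of the chosen gene, divided by its overlapping bases alone, were a median of 3.36 times the partner's counts per exonic base. Counts from exons outside the overlap are included, so this ratio does not give the read level on the shared bases. The share of the chosen gene's counts that comes from the partner was not tested.

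Genes lying wholly inside the exons of a larger gene were counted as a look at how overlap was treated, leaving out the 231 genes, whose zeros were fixed by the choice. On the opposite strand, 10 such genes of at least 200 exonic bases had a larger gene deep enough, in both kinds of library, for 500 or more counts to be expected on the shared bases. Of these 10 genes, 4 had no count in MII and 6 had none in the microdissected libraries. With the 231 kept in, these were 4 and 12 of 16 pairs of a nested and a larger gene. Keeping the 231 adds genes chosen for this difference and leaving them out removes such genes, so neither comparison is free of the choice. For 8 nested genes on the same strand, none was at 0 in either kind. Among nested genes deep enough in a given kind, which are not the same genes, 5 of 12 on the opposite strand and 0 of 9 on the same strand were at 0 in MII. In the microdissected libraries these were 46 of 57 and 1 of 21. The part of overlap in the choice of the 231 genes was not tested, and the strand setting used in counting is not given in the sources used here.

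Most of the 231 genes do not encode protein. There were 63 protein-coding genes (27.3%), against 93.3% among the 4974 genes at the same MII level. Annotated antisense genes were the largest class with 72 genes, followed by 38 long intergenic RNAs (lincRNA), 19 gene models that await experimental evidence (TEC), 18 pseudogenes, 9 processed transcripts, 4 mitochondrial tRNAs and 3 miRNA genes. Provisional names of the Gm or Rik form were carried by 158 genes. Seen from the other side, 50.3% of the 334 genes not encoding protein at this MII level were among the 231, and 1.36% of the protein-coding genes were.

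**Figure D1:**
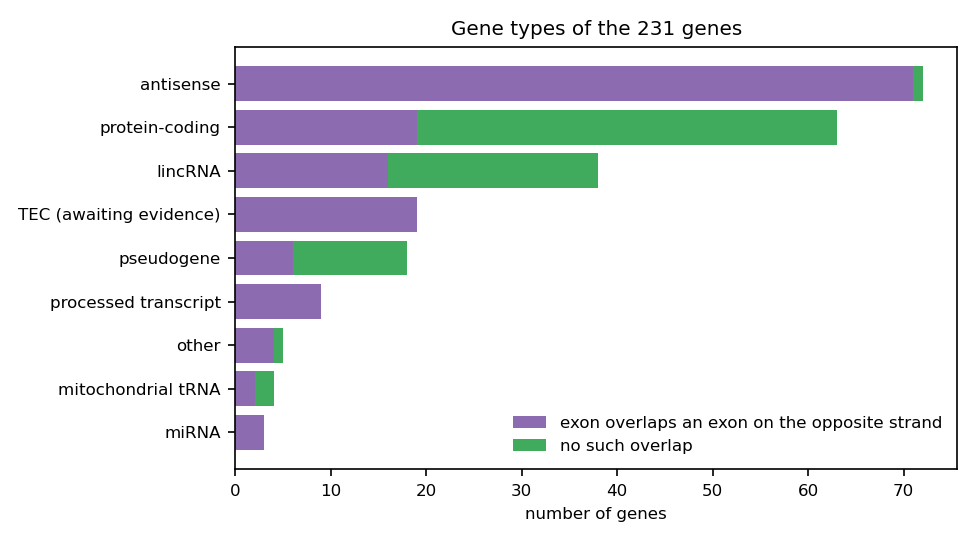
Number of genes (x axis) of each annotated type (y axis) among the 231 genes, split by whether an exon overlaps an exon of another gene on the opposite strand. All but 1 of the 72 antisense genes overlap in this way, whereas 44 of the 63 protein-coding genes do not.

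The share of the chosen genes was larger among other gene types in each bin of mean level. Among genes with a mean of 20 to 50 CPM in MII, 59.4% of those not encoding protein and 2.75% of the protein-coding genes belonged to the set. At a mean of 100 CPM or more the shares were 37% and 0.212%. The chosen genes were short, with a median of 1836 exonic bases in 3 exons, against 4909 bases in 11 exons for the 4974 genes. Their GC content was close to that of the larger set, at medians of 47.9% and 47.6%.

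Among the protein-coding genes, 5 were grouped as regulators of transcription and chromatin, a grouping that may not hold every such gene. Mbd3l2, a relative of the chromatin protein Mbd3, had 238, 303 and 377 CPM in the sham MII libraries and 304, 307 and 532 CPM in the NTY libraries. It overlaps no other gene, and per length it had a mean of 414 TPM (counts per base of gene, set to the same sum in every library), the highest among the 44 coding genes without opposite-strand overlap. Tfap2b, an AP-2 transcription factor, ranged from 26.6 to 68.8 CPM (median 57.7), and Zscan10, a zinc finger protein of pluripotent cells, from 18.1 to 63.6 CPM (median 26.7).

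Neurog3 and Shox2 belong to the same group but share exons with genes on the other strand. Neurog3, a basic helix-loop-helix factor known from endocrine pancreas, had 95 to 178 CPM in MII. It shares 273 exonic bases with Fam241b, which had 769 ± 273 CPM (SD, n = 6) in MII and counts in 7 of the 12 microdissected libraries. How much of the Neurog3 count comes from Fam241b cannot be told apart.

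A group of 3 genes known from the early embryo or as imprinted has no opposite-strand overlap. The list of preimplantation cluster genes had 0 of 23 genes at 10 CPM in each MII library. The 3 genes were grouped after being chosen at that level, so they cannot be compared with the list. Tcstv1, named for its expression in early cleavage embryos, had 45.3, 74.4 and 122 CPM in the sham libraries and 76.5, 67.4 and 10.9 CPM in the NTY libraries, so the groups overlap and NTY replicate 3 lies lowest. Fbxo15, an F-box protein of embryonic stem cells, ranged from 18.6 to 62.1 CPM. Phlda2, an imprinted gene that restrains placental growth, ranged from 19 to 52.3 CPM.

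Shoc1, needed for crossover formation in meiosis, has no opposite-strand overlap. It had 31.9, 38 and 37.8 CPM in sham and 38.4, 62.2 and 49.5 CPM in NTY libraries. Mean levels over the whole set ran from 13 to 1150 CPM with a median of 37.7 CPM, and Shoc1 lies just above that median at 43 ± 11 CPM (SD, n = 6).

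Immune receptors, ligands and signalling proteins were the largest named group, with 8 genes, 7 of them without opposite-strand overlap. Cxcr3, a chemokine receptor, had 129, 116 and 70.6 CPM in sham and 83.4, 54.6 and 97.4 CPM in NTY libraries. Tnfsf13b, the B cell survival factor BAFF, ranged from 44.3 to 122 CPM, and Ifitm6, a member of the interferon-induced transmembrane family, from 30.4 to 81.8 CPM. Ighg2b, a constant region gene of immunoglobulin heavy chains outside the protein-coding class, is also among the 231, with 33.4 to 127 CPM and no overlap. Ptprc, the pan-leukocyte marker, had 0 CPM in each of the 6 libraries, and Cd68 reached 6.64 CPM at most. Whether immune cells contributed to these levels was not tested.

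Cd247, the zeta chain of the T cell receptor complex, is the immune gene with an opposite-strand partner. It had 21.7 to 35.2 CPM in MII, and 3007 of its exonic bases overlap Pou2f1. Pou2f1, a broadly expressed transcription factor, had 145 ± 21.4 CPM (SD, n = 6) in MII and counts in each of the 12 microdissected libraries.

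Hormones, transporters and enzymes made up further small groups. Gnrh1, the precursor of gonadotropin-releasing hormone, had 42.9, 65.1 and 83.6 CPM in sham and 80.8, 65 and 24.8 CPM in NTY libraries, with a mean TPM of 248. Pthlh, which encodes parathyroid hormone-related protein, ranged from 16.5 to 68.4 CPM. Both overlap no other gene.

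Aqp9, a channel for water and glycerol, ranged from 44.4 to 94 CPM, and Cth, the enzyme that forms cysteine from cystathionine, from 14.4 to 47.7 CPM. Genes of cilia and axonemes were also present, among them Daw1 with 21.8 to 40.2 CPM and Drc1, a subunit of the nexin-dynein regulatory complex, with 12.6 to 42.5 CPM. Tubal3, an alpha-tubulin relative, had 71.1 to 146 CPM. These functional groups were formed after the names had been seen and hold 37 of the 63 protein-coding genes.

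**Figure D2:**
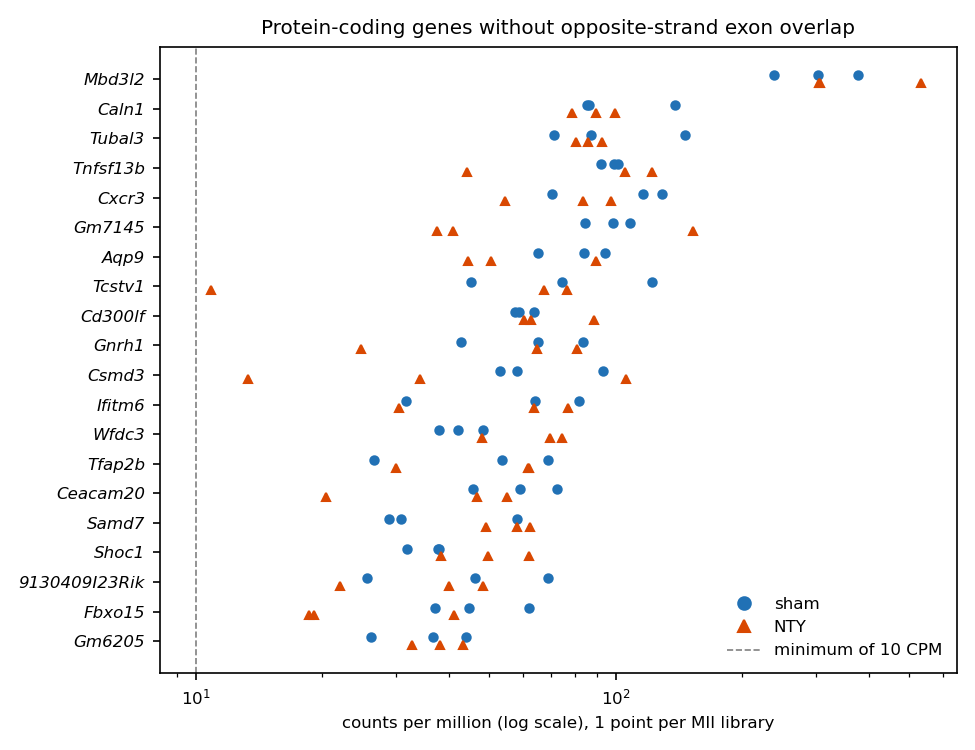
CPM on a log scale (x axis) in each MII library for the 20 protein-coding genes without opposite-strand exon overlap that had the highest mean CPM (y axis), with circles for sham, triangles for NTY and a dashed line at the minimum of 10 CPM. Mbd3l2 lies above all the others, and Tcstv1 in NTY replicate 3 lies closest to the line at 10.9 CPM.

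The gene lists held few of the set. Oocytes store transcripts for growth factors, the egg coat, meiotic control and the first embryonic divisions, and many of these belong to families expressed in few other cells. The 18 lists hold such genes and also other families, among them olfactory and vomeronasal receptors, histones and spermatid genes. Of their genes, 114 had at least 10 CPM in each MII library, and 3 of the 114 (2.63%) were among the 231. The share was 4.64% over all 4974 genes at this level and 1.36% over the protein-coding ones. The other 111 had counts in at least 1 microdissected library, 30 of them in all 12.

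The 3 were Oas1b, Olfr288 and Olfr1300-ps1, and 2 of them come from the receptor list, which had 4 genes at this level. Oas1b, of the oligoadenylate synthetase family and annotated as a polymorphic pseudogene, ranged from 10.4 to 34.1 CPM. Olfr288 and Olfr1300-ps1, of the olfactory receptor family, ranged from 19.8 to 62.7 and from 15.8 to 56.6 CPM. Olfr288 shares exons on the same strand with Gm44579, another of the 231, whose counts were nearly equal at 19.3 to 59.9 CPM, so these are not independent observations.

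Genes of the egg coat and of factors secreted by the oocyte varied in the microdissected libraries. Of 8 at 10 CPM in each MII library, 3 had counts in all 12. Gdf9, an oocyte growth factor, had a median of 4939 CPM in MII and counts in each of the 12 microdissected libraries (median 44.3 CPM). Zp3, a zona pellucida protein, had medians of 189 and 10.8 CPM. Bmp15 and Oosp1 had counts in 8 microdissected libraries each. Oosp2 and Oosp3 had 4 and 5 counts, in 3 libraries each, with at least 27.7 and 476 CPM in each MII library. Of the 13 listed oocyte-specific F-box genes with WD repeats, 11 reached 10 CPM in each MII library. None of these was among the 231, and they had counts in 5 to 8 of the microdissected libraries.

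In the Tcl1 family, all 6 genes reached 10 CPM in each MII library. Tcl1 itself had counts in all 12 microdissected libraries, whereas Tcl1b5 had 137 to 220 CPM in MII and 1 count in all the microdissected libraries together. Tmprss11a and Fbxw23, an F-box gene that the list did not hold, were likewise left out by 1 count, with at least 154 and 109 CPM in each MII library. In all, 19 genes at this MII level had 1 microdissected count.

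At the other threshold, the genes just inside the CPM minimum were Gm14276, Gm7706 and Gm37939, each with a lowest MII value of 10.2 CPM. Just outside were Gm44344 at 9.96 CPM, Slc15a5 at 9.85 CPM and Magea7-ps at 9.82 CPM. The lowest MII value lay under 20 CPM for 102 of the 231 genes and at 100 CPM or more for 18 of them.

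Some of the oocyte genes outside the set share exonic bases with a gene inside it on the opposite strand. Gm43069 lies opposite Oas1c, Gm42494 opposite the F-box gene Fbxw16, Gm42756 opposite Fbxw15, and Gm19224 opposite Oosp3, an oocyte-secreted protein. Gm19224 is a processed pseudogene, and 57 of its 793 exonic bases overlap Oosp3. Gm42494 had 34, 155 and 117 CPM in sham and 99.5, 119 and 68.7 CPM in NTY libraries. Fbxw16 had 257 ± 90.2 CPM (SD, n = 6) in MII and counts in 5 microdissected libraries.

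Gm19553 overlaps 317 bases of Pou5f1, the gene for the pluripotency factor Oct4. It ranged from 34.8 to 82.4 CPM, whereas Pou5f1 had 91.3 ± 28.6 CPM (SD, n = 6) in MII and counts in 10 microdissected libraries. Gm44985 lies opposite Plk1, a kinase of cell division, with 41.1 to 95.1 CPM. Gm42494 and Gm42756 lie within 100000 bases of each other on chromosome 9. All but Gm19224 were named after their values had been seen.

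Compared per length, the most abundant genes were not protein-coding. None of the 20 genes with the highest mean TPM encodes protein, and 16 of the 20 have an exon opposite an exon of another gene. Gm31941, a processed pseudogene of 350 bases, led with 8516 ± 1023 TPM (SD, n = 6) and 891 to 1348 CPM. All its bases lie opposite exons of C86187, which had 6399 ± 1137 CPM in MII and a median of 4.56 CPM in the microdissected libraries.

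Gm20490 and Gm14453 are both opposite Rbm38, an RNA-binding protein gene with 2144 ± 503 CPM in MII and counts in all 12 microdissected libraries. Gm20490 reached 4228 TPM and Gm14453 reached 2883 TPM on average. Gm10459, opposite the histone mRNA-binding protein gene Slbp, had 280 to 568 CPM and Slbp 5426 CPM on average. The miRNA gene Gm22953 lies wholly opposite exons of Serf2, and Gm26827 wholly opposite exons of Chsy1.

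AA545190 was the lincRNA with the highest TPM among those with a TPM value, and it overlaps no other gene. It had 273, 393 and 425 CPM in sham and 305, 227 and 210 CPM in NTY libraries, so that the groups overlap. Of the 38 lincRNAs, 18 overlap no other gene and 16 have an opposite-strand exon.

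The pseudogenes share sequence with coding genes, and whether reads were assigned to the wrong copy was not tested. Gm15681, without exon overlap, had 433 to 617 CPM and is 89% identical over 2769 aligned bases to a transcript of Ppp4r1. Ppp4r1 itself had 4.92 CPM on average in MII. Gm6201 is 93.6% identical to Lcp1, and had 227 ± 67.2 CPM (SD, n = 6), with Lcp1 at 39.3 CPM in MII.

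Other copies are closer in sequence. Gm20690 has 2 gene identifiers at the same place with the same counts, so 231 identifiers stand for 230 symbols. Its transcripts are 99.1% and 99.7% identical to Klf17, which had 2116 CPM on average in MII and 72 counts over the microdissected libraries. Alms1-ps2 is 99% identical to Alms1, and they had 29.9 and 21.3 CPM on average in MII. Gm20690 itself had 45.5 ± 11.4 CPM (SD, n = 6), and how reads were divided between such copies and the coding gene was not tested.

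Mitochondrial tRNAs formed the only run of more than 2 neighbours within 100000 bases. They lie between positions 3706 and 14139 of the mitochondrial genome. That stretch is shorter than the distance set, so any such genes within it form a run. mt-Ti, mt-Tq, mt-Ta and mt-Te carry isoleucine, glutamine, alanine and glutamate in mitochondrial translation, and are cut from long transcripts that also hold the mitochondrial mRNAs. mt-Tq had 234, 45.6 and 73.9 CPM in sham and 53, 101 and 159 CPM in NTY libraries. mt-Te had 55.9, 26.6 and 21.4 CPM in sham and 17.2, 58.5 and 114 CPM in NTY libraries.

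The spread within each treatment was wide, with sham replicate 1 the highest library for mt-Ti, mt-Tq and mt-Ta and NTY replicate 3 the highest for mt-Te. Of 22 mitochondrial tRNA genes, 8 reached 10 CPM in each MII library, and the other 4 of these had between 4 and 35 counts over the microdissected libraries. The 13 mitochondrial mRNAs together had a median of 28760 CPM in MII and 38 CPM in the microdissected libraries, so low mitochondrial counts there were not particular to the tRNAs.

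The sequences of the 4 tRNA genes, from GENCODE M21 on GRCm38, are given because they are the shortest genes of the set and each is read in full. mt-Ti (chrM:3706-3774, plus strand) and mt-Tq (chrM:3772-3842, minus strand) share 3 bases on opposite strands. mt-Ta lies at chrM:5018-5086 and mt-Te at chrM:14071-14139, both on the minus strand. Capitals mark the anticodon.
mt-Ti: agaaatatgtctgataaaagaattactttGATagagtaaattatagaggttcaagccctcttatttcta
mt-Tq: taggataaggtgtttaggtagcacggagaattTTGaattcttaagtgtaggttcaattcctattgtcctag
mt-Ta: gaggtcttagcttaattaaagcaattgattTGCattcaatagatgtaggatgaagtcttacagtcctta
mt-Te: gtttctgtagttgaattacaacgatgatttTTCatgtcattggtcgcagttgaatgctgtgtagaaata

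Promoters were available for 90 of the member symbols, as 107 RefSeq windows of 300 bases on GRCm38.p6 that run from 250 bases before to 50 after a gene start. The letters TAATTG or CAATTA were in 7.48% of these windows and in 8% of all 32851 windows. CACCTG or CAGGTG, an E-box, was in 25.2% against 20.2%, and TATAAA or TTTATA in 15% against 13.6%. These are counts of letters on either strand, not sites.

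The windows of 3 coding genes that overlap no other gene are shown, as those with the highest mean TPM that had a window. Capitals mark the searched letters. Mbd3l2 holds CAATTA (chr9:18430365-18430664, plus strand), Ifitm6 holds TATAAA (chr7:141016843-141017142, minus strand) and Cxcr3 holds CACCTG (chrX:101734098-101734397, minus strand).
Mbd3l2: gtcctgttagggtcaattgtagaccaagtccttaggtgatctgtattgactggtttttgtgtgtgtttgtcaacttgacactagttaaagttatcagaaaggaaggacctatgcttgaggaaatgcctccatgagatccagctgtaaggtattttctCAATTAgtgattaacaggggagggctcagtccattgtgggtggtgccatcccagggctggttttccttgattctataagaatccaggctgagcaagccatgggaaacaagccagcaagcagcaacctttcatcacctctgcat
Ifitm6: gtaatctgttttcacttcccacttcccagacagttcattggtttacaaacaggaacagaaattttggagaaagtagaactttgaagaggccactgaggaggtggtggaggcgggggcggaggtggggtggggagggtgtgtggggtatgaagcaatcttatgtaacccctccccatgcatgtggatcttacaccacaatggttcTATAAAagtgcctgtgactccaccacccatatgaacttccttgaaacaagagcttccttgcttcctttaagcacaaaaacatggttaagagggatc
Cxcr3: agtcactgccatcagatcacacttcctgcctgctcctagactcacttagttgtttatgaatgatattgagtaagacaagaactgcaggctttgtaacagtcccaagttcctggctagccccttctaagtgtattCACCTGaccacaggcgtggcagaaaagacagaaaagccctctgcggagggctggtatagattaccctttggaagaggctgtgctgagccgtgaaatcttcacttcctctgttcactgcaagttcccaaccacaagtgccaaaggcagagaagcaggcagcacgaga

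Markers of other ovarian cells differed between the kinds of library. The 6 stroma markers summed to a median of 3467 CPM in the microdissected libraries, led by Col1a1, and to 0.169 CPM in MII. The 10 granulosa markers summed to medians of 1980 and 118 CPM, with Foxl2 at 0 in each MII library and Esr2 and Cyp19a1 making up most of the MII sum. The 10 oocyte markers summed to medians of 195 CPM in the microdissected libraries and 23123 CPM in MII. Single libraries ran from 0.592 to 578 CPM and from 15235 to 27707 CPM, so at least 1 microdissected library held almost no counts of oocyte markers. The 6 cumulus markers summed to a median of 0 CPM in both kinds. The part of these levels in the counts of 0 was not tested.

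NTY and sham MII oocytes were compared across all genes, since the choice of the 231 asked the same of both groups. The 231 genes took 1.56%, 1.73% and 1.72% of all counts in the sham libraries and 1.6%, 1.66% and 1.55% in the NTY libraries. The equal counts of the Gm20690 identifiers both enter these shares. The groups overlap, at 1.67 ± 0.0937% and 1.61 ± 0.0562% (SD, n = 3 each).

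By the quasi-likelihood test of edgeR, 0 of 12209 genes tested (0%) had an adjusted p under 0.05, and none of the 231 did; all 231 passed the filter. At an unadjusted p under 0.05 the test gave 52 genes higher in NTY (0.426%) and 228 lower (1.87%), and 0 of the 231 in either direction. Among the 4974 genes at the same MII level the share was 0.864%, so a count of 0 in 231 is near the background. Leaving out NTY replicate 3 gave 13 of the 231 (5.63%), against 7.33% of all genes in that fit. At an unadjusted p under 0.05, DESeq2 gave 3 of the 231 (1.3%, against 4.3% of all genes) and limma with voom and sample quality weights gave 4 (1.73%, against 4.1%). Neither called any of the 231 after adjustment, although DESeq2 called 87 genes in all. For DESeq2, limma and the fit without NTY replicate 3, no share was computed among the 4974 genes at the same MII level.

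The median log2 fold change of NTY against sham was -0.03 over the 231 genes and 0.00 over all genes tested. Single genes ran from -0.97 to 1.15. Ptpn22, a phosphatase of lymphocyte signalling, had the lowest p, with 32.5, 59.9 and 36.4 CPM in sham and 19.8, 27.2 and 20.9 CPM in NTY libraries. Its log2 fold change was -0.89 ± 0.40 (SE, derived from the F statistic of the edgeR test). The edgeR unadjusted p was 0.0521 and the adjusted p was 1.

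The groups did not overlap for Ptpn22. In all, 3 of the 231 (1.3%) were higher in every NTY library and 7 (3.03%) lower, against 2.3% and 6% of all genes tested. Among the 4974 genes at the same MII level the shares were 2.27% and 3.08%. For the 82 genes without opposite-strand overlap they were 1.22% and 6.1%. Mill1, a relative of the class I histocompatibility genes, was among the 7, with 35.6, 39.8 and 26.7 CPM in sham and 13.9, 12.7 and 23.5 CPM in NTY libraries. Shoc1 was among the 3. The shares of the 231 are no larger than among all genes tested or among the 4974 genes. Ptpn22, Mill1 and Shoc1 were named after their values had been seen. With 3 libraries against 3, the smallest p an exact permutation test can give is 0.1.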

How the data were processed

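The authors deposited whole-number counts per gene and TPM. The submitters' processing notes name Trim Galore 0.4.1, TopHat2, featureCounts and mm10. The deposited TPM table covers 28252 genes and 220 of the 231. Of the 53715 gene identifiers, 53620 were found in GENCODE M21 (GRCm38), the source of gene models. Overlaps of exons were counted with bedtools 2.31.1. Pseudogene transcripts were aligned to coding transcripts with BLAST+ 2.17.0 at an E value of 1e-10. MII libraries of the NTY and sham groups were compared with edgeR 4.0.16 in R 4.3.3 (TMM, robust quasi-likelihood test, filterByExpr, Benjamini-Hochberg adjustment), and with DESeq2 1.42.0 and limma 3.58.1 as alternatives. The edgeR fit was tested on simulated data. Nothing says that replicates came from separate animals, so p-values measure the spread between libraries, which may be technical. Other steps used Python 3.11.15 and pandas 2.3.3.

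The genes and lists were chosen with earlier results of these data known. Genes named by rule were those of the lists, the 20 with the highest mean TPM, those next to each threshold, the largest run of neighbours and up to 5 per direction with the lowest unadjusted p under 0.05, of which there were none. Other genes were chosen after their values were seen.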

Additional observations from a re-analysis of the deposited data

How the results depend on the processing

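The number of genes was 370 with a minimum of 5 CPM, 129 with 20 CPM and 359 with a TPM of 10 or more. It was 82 without genes whose exons overlap an opposite-strand exon and 56 without genes that overlap another gene, both chosen after seeing the data. Leaving out each of the 18 libraries gave 231 to 254. Allowing 3 counts in each microdissected library gave 306, 0.1 CPM gave 280, and TMM library sizes gave 235. The number therefore depends on the CPM minimum, on the use of CPM or TPM, and on whether overlapping genes are kept. To a lesser degree it depends on the count allowed in the microdissected libraries. Other ways of counting overlapping genes were not run.

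For NTY against sham, DESeq2 called 87 genes, and edgeR and limma called 0 under the other alternatives. The count of the 231 at an unadjusted p under 0.05 was 3 with DESeq2, 4 with limma, voom and sample quality weights, 1 with a filter of any count and 1 (of the 220 tested) with limma on log2(TPM + 1), against 4.3%, 4.1%, 5.52% and 4.27% of all genes tested. Leaving out each MII library gave 0 to 13, the highest without NTY replicate 3 (7.33% of all genes), and the cause was not tested. For these alternatives, no share was computed among genes at the same MII level as the 231. With the replicate number as a block, 0 genes were called and 0 of the 231 had an unadjusted p under 0.05. Same-numbered libraries did not deviate together (correlations of 0.16, -0.12 and -0.14 over 4974 genes), so the numbers were not taken as pairs. Over the fits tried, the median log2 fold change of all genes tested ranged from -0.17 to 0.05. The median of the 231 was -0.09 to 0.01 and the share of counts 1.62% to 1.66% when libraries were left out.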
